A study of Rattus norvegicus with 9 samples.

Results

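Cartilage progenitor cells grown from rat condylar cartilage were exposed to flow fluid shear stress (FFSS) at passage 3, and their miRNAs were compared with those of untreated cells at the same passage (P3). Both groups were wild-type primary cultures with 3 small RNA libraries each, so 6 of the 9 libraries of the series are compared. The other 3 libraries are passage 9 cells (P9), the replicative senescence group of the submitters' design, in which shear-stressed cells stand for degeneration. The P9 libraries also entered the fit, so the filter on reads, the scaling and the estimate of spread behind the p-values draw on them. The members are all rows that carry an annotated rat miRNA name, 635 of the 726 rows of the deposited table, and the other 91 rows are predicted. A minimum of reads left 432 annotated rows to test, and 203 had too few. The sources used here do not give the size or duration of the shear, and the labels do not say whether replicates were separate cultures or animals. The p-values therefore reflect the spread between these libraries and nothing beyond it, and that spread may be technical.

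A miRNA is cut from a folded hairpin, whose arms, called 5p and 3p, can each yield a mature strand of about the same length. Loaded into an Argonaute protein, it pairs with messenger RNAs mostly through its seed, bases 2 to 8 from the 5′ end, so miRNAs with the same seed are thought to share many targets. Hairpins often lie in clusters that are transcribed together. Shear stress is the drag of moving fluid on a cell surface, which cartilage and bone cells sense through ion channels, integrins and primary cilia, and excessive mechanical load is linked to cartilage degeneration.

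The mature sequences below are from RefSeq (build GRCr8), in which 401 of the 432 tested miRNAs were found. Capitals mark the seed. First are miRNAs that rose, shown with relatives that did not pass the test where the seed is shared: miR-146b-5p beside miR-146a-5p, miR-212-3p beside miR-132-3p, and miR-92a-3p beside miR-92b-3p. Both listed miR-34 strands rose.
miR-146a-5p: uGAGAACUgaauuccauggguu
miR-146b-5p: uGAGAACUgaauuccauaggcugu
miR-184: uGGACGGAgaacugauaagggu
miR-224-5p: cAAGUCACuagugguuccguuu
miR-34b-3p: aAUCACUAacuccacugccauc
miR-34c-3p: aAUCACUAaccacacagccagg
miR-132-3p: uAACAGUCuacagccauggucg
miR-212-3p: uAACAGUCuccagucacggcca
miR-92b-3p: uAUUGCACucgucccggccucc
miR-92a-3p: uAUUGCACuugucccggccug

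The miR-10 strands moved in opposite directions. Aligned over 21 bases, they differ by the single substitution U12A, with positions counted from the 5′ end of miR-10a-5p. The RefSeq entry of miR-10b-5p starts further in, so its bases 2 to 8 are other letters of the same stretch.
miR-10a-5p: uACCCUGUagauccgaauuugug
miR-10b-5p: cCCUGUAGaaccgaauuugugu

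Next are miRNAs that fell, from the imprinted Dlk1-Dio3 locus.
miR-494-3p: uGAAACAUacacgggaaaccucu
miR-541-5p: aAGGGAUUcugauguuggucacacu
miR-493-5p: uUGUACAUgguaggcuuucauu
miR-127-3p: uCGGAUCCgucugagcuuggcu
miR-154-3p: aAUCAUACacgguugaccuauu

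Outside that locus, miR-17-5p and miR-20a-5p fell and share their seed with miR-93-5p and miR-106b-5p, which did not pass. The miR-450 strands share a seed and both fell, and so do the miR-221-3p and miR-222-3p strands share one, of which the second fell.
miR-17-5p: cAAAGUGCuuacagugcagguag
miR-20a-5p: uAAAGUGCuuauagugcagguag
miR-93-5p: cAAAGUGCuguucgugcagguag
miR-106b-5p: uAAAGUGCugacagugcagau
miR-450a-5p: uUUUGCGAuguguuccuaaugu
miR-450b-5p: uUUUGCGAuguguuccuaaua
miR-222-3p: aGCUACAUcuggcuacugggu
miR-221-3p: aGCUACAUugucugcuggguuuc
miR-221-5p: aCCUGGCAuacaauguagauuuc
miR-145-5p: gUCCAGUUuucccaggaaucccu
miR-7a-5p: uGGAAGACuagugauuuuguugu

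Last are both arms of miR-376b and miR-152, whose balance between arms changed, and a pair of rows that read opposite strands of the same letters.
miR-376b-5p: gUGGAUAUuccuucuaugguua
miR-376b-3p: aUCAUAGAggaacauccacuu
miR-152-5p: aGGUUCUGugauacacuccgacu
miR-152-3p: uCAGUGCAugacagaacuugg
miR-382-3p: aAUCAUUCacggacaacacuu
miR-3592: aAGUGUUGuccgugaaugauu

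The P3 libraries held 7522702 to 8862560 miRNA reads, and the FFSS libraries 2878910, 7082142 and 3896403. FFSS replicates 1 and 3 were thus the shallowest of the series, and 1 read was worth 0.347 and 0.257 CPM (a count scaled by its library's total) in them against 0.113 to 0.133 CPM in P3. Of the 432 tested miRNAs, 99, 44 and 59 had under 10 reads in FFSS replicates 1, 2 and 3, against 20 to 39 in the P3 libraries. Reads were found for 483, 552 and 533 annotated rows in FFSS and 525 to 559 in P3. With every library thinned to the smallest total these became 483, 511 and 521 in FFSS and 480 to 508 in P3. Across miRNAs, log CPM correlated at 0.987 to 0.994 between P3 libraries, 0.989 between FFSS replicates 2 and 3, and 0.967 and 0.977 between FFSS replicate 1 and these. All levels here are shares of a library's miRNA reads, and in bulk samples fewer cells of a type and less RNA per cell cannot be told apart.

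Under shear stress 30 annotated miRNAs rose and 60 fell (edgeR quasi-likelihood test, Benjamini-Hochberg adjusted p under 0.05, called below). These are 6.83% and 13.7% of all 439 rows tested, or 20.5% in either direction. Counts of miRNAs here and below are of rows, and some called rows hold nearly the same reads. Examples are miR-409a-3p and miR-409b, miR-382-3p and miR-3592, and miR-9a-5p and miR-9b-3p. The count of rises depended on single libraries: it was 3, 7 and 6 without P3 replicate 1, 2 or 3, 18 and 8 without FFSS replicate 1 or 3, and 18, 12 and 53 without P9 replicate 1, 2 or 3. The count of falls was 33 and 38 without P3 replicate 1 or 2, 32 without FFSS replicate 3 and 94 without P9 replicate 3. The largest group among those that fell was the lists of the Dlk1-Dio3 locus, with 38 of the 60. Of the rest, miRNAs that fell included miR-7a-5p, miR-145-5p, the miR-221/miR-222 and miR-17-92 clusters in part, and miR-10b. Those that rose included miR-146a-5p, miR-184, miR-10a-5p, miR-224-5p and strands of miR-34b, miR-34c, miR-92b, miR-9a and miR-23a. Of the risen, 27 had a log2 fold change of at least 1, and of the fallen 55 had one of -1 or below. The share called was 16.3% of miRNAs under 10 CPM, 28.5% between 10 and 100 CPM, 21.0% between 100 and 1000 CPM and 13.0% above 1000 CPM, so calls were not confined to rare miRNAs. None of the 10 most abundant miRNAs, led by miR-148a-3p, miR-21-5p, miR-99a-5p and miR-143-3p, was called. The FFSS libraries lay above all P3 libraries for 18.9% of the tested rows and below them for 22.6%.

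**Figure D1:**
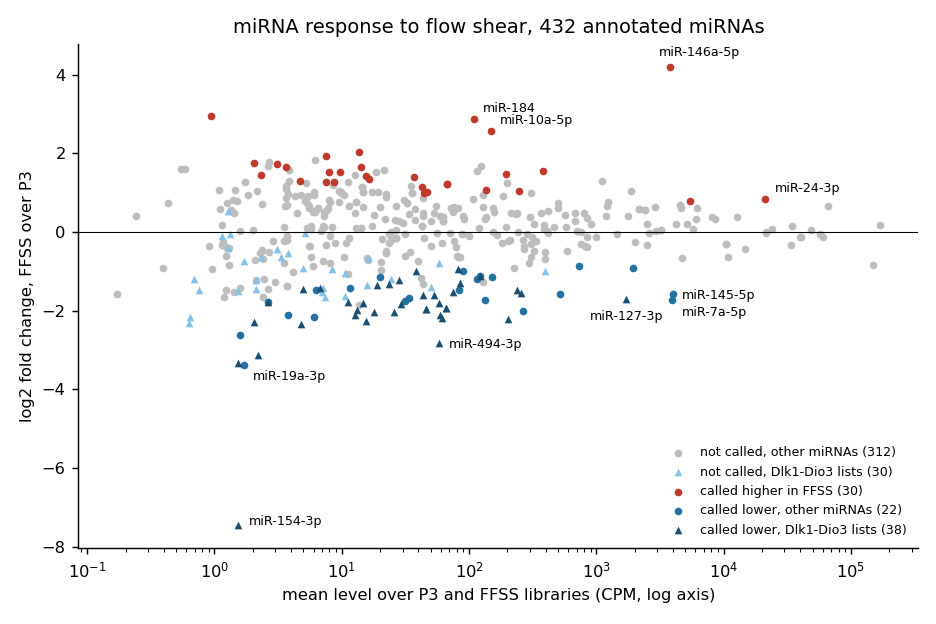
Mean level over the P3 and FFSS libraries (CPM, log axis) against the log2 fold change of FFSS over P3 for the 432 annotated miRNAs tested, with 1 point per miRNA, triangles for the Dlk1-Dio3 lists and colours for the calls. The 38 called Dlk1-Dio3 miRNAs all lie below 0, and miR-146a-5p has the highest fold change. The fitted value of miR-154-3p, which had no read in FFSS, depends on the model's handling of 0 and is no estimate of size.

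The Dlk1-Dio3 locus is an imprinted region whose non-coding RNAs, among them Meg3, Rtl1 antisense and Mirg, carry many miRNA hairpins expressed from the maternal chromosome and known from embryonic tissue, brain and muscle. None of the 68 tested miRNAs listed for it rose and 67 had a negative log2 fold change. Their median was -1.49, beside 0.02 over all annotated miRNAs tested and 0.20 over the 364 outside these lists, of which 30 rose and 22 fell. In the miR-379 to miR-410 cluster 27 of 49 tested members fell, with a median of -1.52. Among the proximal miRNAs, many antisense to Rtl1, 11 of 19 fell, with a median of -1.41, and 6 fell without P3 replicate 1 or 2 or without FFSS replicate 3. Under the other scalings tried, 65 to 67 of the 68 were negative. For 52 of the 68 every FFSS library was below every P3 library, beside 46 of the 364 outside these lists. The lists hold 93 rows of the table, and those left untested had too few reads. Of the 38 that fell, 6 had a mean under 10 reads in FFSS.

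The fall was seen in each FFSS library. Against the P3 mean, the median over the 68 was -2.48 in FFSS replicate 1, -1.07 in replicate 2 and -1.31 in replicate 3. Replicate 1 lay farthest from P3 for 33 of the 38 called. The miR-379 to miR-410 members, untested rows included, summed to 2717, 2814 and 2135 CPM in P3 and to 505, 1205 and 1099 CPM in FFSS. The proximal members, counted likewise, summed to 4401, 3886 and 2976 CPM and to 565, 1565 and 1716 CPM. Neither sum overlapped between the groups. Of the 38 calls, 31 were kept without FFSS replicate 1, 21 without FFSS replicate 3, 34 with all libraries thinned to the smallest total and 20 in every one of the 9 fits that left out a library.

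**Figure D2:**
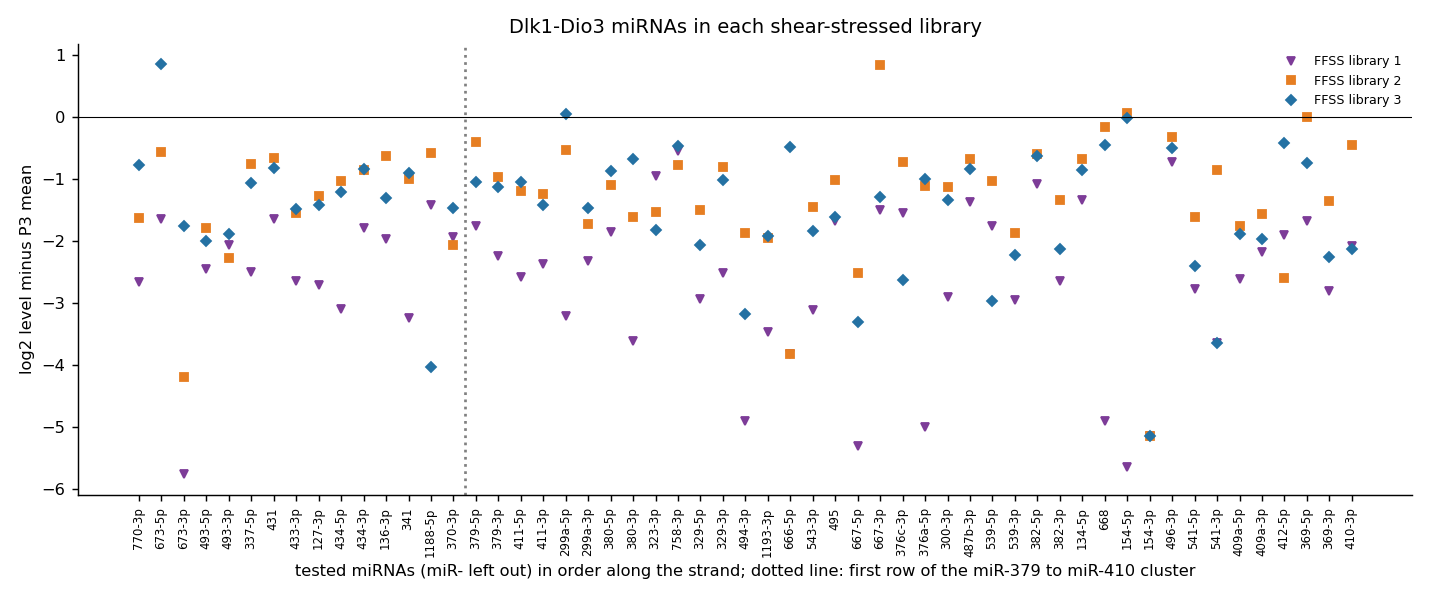
Tested Dlk1-Dio3 miRNAs with a RefSeq position, in order along the strand (x axis, dotted line at the first row of the miR-379 to miR-410 cluster), against the log2 level of each FFSS library minus the P3 mean (y axis, 1 symbol per library). Nearly all symbols lie below 0 on both sides of the dotted line, with replicate 1 mostly the lowest. miR-154-3p had no read in any FFSS library, so its position depends on the count added before taking logs.

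miR-494-3p, a strand from the middle of the miR-379 to miR-410 cluster, was measured at 120, 82.8 and 105 CPM in P3 and at 3.13, 27.1 and 13.1 CPM in FFSS. The groups did not overlap, and its log2 fold change was -2.81 (SE 0.63, adjusted p = 0.00985). The call was lost without FFSS replicate 3 (adjusted p = 0.0514). miR-541-5p stood at 342, 400 and 252 CPM in P3 and at 44.5, 104 and 72.1 CPM in FFSS (-2.22, SE 0.40, adjusted p = 0.00674). miR-543-3p gave 90.8, 160 and 45.4 CPM against 9.38, 31.1 and 28.5 CPM (-2.18, SE 0.60, adjusted p = 0.0293). All its P3 values were above its FFSS values, but the P3 libraries spread over more than the gap between the groups, and the call was lost without P3 replicate 2, FFSS replicate 1 or FFSS replicate 3. miR-409a fell on both arms, from 104 ± 28.7 to 28.2 ± 6.62 CPM for miR-409a-3p (SD, n = 3; -1.93, SE 0.40, adjusted p = 0.00841) and from 41.2 ± 6.03 to 10.3 ± 3.55 CPM for miR-409a-5p (-2.04, SE 0.33, adjusted p = 0.00636). The row miR-409b holds nearly the same reads as miR-409a-3p and is not a further observation. The same is true of miR-382-3p and miR-3592, whose sequences above are reverse complements, at 72.9 ± 14.4 CPM in P3 and 19.3 ± 8.60 CPM in FFSS for the first (-1.97, SE 0.38, adjusted p = 0.00724). miR-1193-3p fell to 5.38 ± 2.93 CPM in FFSS, from 25.4 ± 4.0 CPM in P3 (-2.26, SE 0.42, adjusted p = 0.00674).

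miR-154-3p had 12, 14 and 52 reads in the P3 libraries and none in any FFSS library. Setting 3 counts over the FFSS group in place of 0 makes it at least 14.5-fold lower there (0 of the FFSS reads allow up to 0.216 CPM, counting error only). With that bound in place of its fitted value the medians above keep their values, since the bound also lies below them. miR-379-5p, the first strand of the cluster, stayed short of the call at 516 ± 25.2 CPM in P3 and 272 ± 120 CPM in FFSS (-0.98, SE 0.33, adjusted p = 0.0543), although its libraries did not overlap. The list member with a positive value was miR-299b-3p, at 0.53 and not called.

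Among the proximal miRNAs, miR-127-3p, whose gene lies antisense to Rtl1, was the most abundant of those named. It was measured at 3103, 2671 and 2029 CPM in P3 and at 366, 1036 and 1124 CPM in FFSS, with no overlap (-1.69, SE 0.34, adjusted p = 0.00798). miR-493-5p went from 111, 115 and 60.0 CPM to 15.6, 25.8 and 26.7 CPM (-2.12, SE 0.33, adjusted p = 0.00636), and its partner miR-493-3p fell too, with 20.5 ± 2.02 CPM in P3 and 5.01 ± 1.24 CPM in FFSS (-2.10, SE 0.37, adjusted p = 0.00674). miR-370-3p fell to 26.8 ± 9.44 CPM in FFSS, with 89.7 ± 9.80 CPM in P3 (-1.81, SE 0.31, adjusted p = 0.00636). Each of these 4 strands kept its call in all 9 fits that left out a library. Outside the lists, miR-6331 lies between hairpins of the cluster in RefSeq, and miR-3543 and miR-3576 read the reverse complement of miR-434-3p and miR-539-5p. These 3 of the 22 other fallen rows thus also belong to the locus by position. However, miR-3543 and miR-3576 hold nearly the same reads as those list members and are not further observations. The rows miR-3578 and miR-3579, in RefSeq among the same hairpins and also outside the lists, were not called (-0.66 and -1.23, adjusted p = 0.325 and 0.0678).

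miR-146a-5p, induced by NF-kB and a brake on it through the adaptors IRAK1 and TRAF6, had the highest fold change of all tested miRNAs. It was at 401, 399 and 392.1 CPM in P3 and at 17002, 650 and 3853 CPM in FFSS. Every FFSS library was above P3, but they differed among themselves by far more than the P3 libraries did (log2 fold change 4.20, SE 1.0, adjusted p = 0.0198). Without FFSS replicate 1 the value was 2.20 (adjusted p = 0.0393). The call was lost without any 1 of the P3 libraries or without P9 replicate 3, with the highest adjusted p among them at 0.0900. It was also lost with no filter on low counts, with limma-voom and when only P3 and FFSS entered the model. Its relative miR-146b-5p, with the same seed but another gene, overlapped between the groups at 161 to 173 CPM in P3 and 141 to 192 CPM in FFSS.

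The same order of the FFSS libraries was seen in other risen miRNAs. miR-184, known from cornea and lens, was at 23.2, 26.7 and 27.6 CPM in P3 and at 358, 71.2 and 144.7 CPM in FFSS (2.87, SE 0.78, adjusted p = 0.0273). Without FFSS replicate 1 it was at 1.80 and no longer called (adjusted p = 0.110), and leaving out any 1 P3 library, or the filter on low counts, also ended the call. miR-10a-5p, from the HoxB cluster, gave 39.6, 47.6 and 41.6 CPM against 546, 71.4 and 145.3 CPM (2.57, SE 0.63, adjusted p = 0.0167). Without FFSS replicate 1 this became 1.07 (adjusted p = 0.0607), and the call was lost without P3 replicate 1 or 3 too. All 3 miRNAs were highest in replicate 1, then in 3, then in 2, with no overlap with P3. Of the 30 that rose, 16 were farthest from P3 in replicate 1, 8 in replicate 2 and 6 in replicate 3.

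Markers of other cell types were read beside these values. Of all rows tested 6.83% were called higher, and 219 of the 432 annotated miRNAs tested were positive. The 5 tested blood markers, erythroid miR-451-5p and miR-486 and leukocyte miR-142 and miR-150-5p, were all positive, with a median of 1.53, and miR-142-5p rose (1.53, SE 0.49, adjusted p = 0.0437, kept in 2 of the 9 fits that left out a library). All 10 rows of the blood list, untested ones included, summed to 141, 161 and 80.0 CPM in P3. In FFSS they summed to 603, 171 and 400 CPM, again highest in replicate 1 and lowest in replicate 2. The 7 tested epithelium markers were also all positive (median 0.63), and miR-200b-3p rose (1.53, SE 0.47, adjusted p = 0.0399), a call kept in 3 of those 9 fits. The 14 rows of that list summed to 132 to 171 CPM in P3 and 368, 147 and 252 CPM in FFSS. The 11 rows of muscle markers summed to 223 to 259 CPM in P3 and 605, 301 and 380 CPM in FFSS. The endothelium markers miR-126a-3p, miR-126a-5p and the untested miR-126b summed to 386 to 407 and 556 to 695 CPM. None of the muscle, endothelium, nervous system or liver markers passed the test. Of the marker rows, miR-499-3p of muscle and miR-192-3p of liver were at 0 in all 6 libraries. The part of such RNA in the rise of miR-146a-5p, miR-184 and miR-10a-5p was not tested. The progenitor and mesenchyme markers, 16 rows, were high in every library, but their sum was lower in every FFSS library. It was 300963 to 365099 CPM in P3 and 218991 to 272870 CPM in FFSS. A large part of it was miR-21-5p, with a mean of 147850 CPM over both groups. Of the 15 tested, 10 were negative, 3 were called lower and none higher, beside 13.7% of all rows called lower.

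miR-30a-3p and miR-224-5p had other orders. miR-30a-3p, the 3p strand of an abundant hairpin, was at 102, 117 and 83.8 CPM in P3 and at 200, 351 and 320 CPM in FFSS (1.46, SE 0.31, adjusted p = 0.00907). Here replicate 1 was the lowest of the FFSS libraries, and the value without it was 1.52 (adjusted p = 0.0121). The call was lost only without P3 replicate 1. miR-224-5p, from an intron of the GABA receptor gene Gabre, was at 202, 167 and 198 CPM against 667, 404 and 641 CPM (1.55, SE 0.44, adjusted p = 0.0323). Its call was lost without FFSS replicate 1 (adjusted p = 0.0952) and without replicate 3 (0.0800), and without any 1 of the P3 libraries.

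miR-34b and miR-34c come from 1 transcript that p53 induces. Both 3p strands rose, miR-34b-3p from 22.1, 26.3 and 10.8 CPM to 52.8, 48.9 and 60.3 CPM (1.40, SE 0.36, adjusted p = 0.0219) and miR-34c-3p to 21.7 ± 4.74 CPM in FFSS, with 6.68 ± 0.906 CPM in P3 (1.65, SE 0.30, adjusted p = 0.00674). miR-34c-5p, the strand with most of that hairpin's reads, overlapped between the groups at 150 to 155 CPM in P3 and 83.4, 234 and 157 CPM in FFSS. Over the 4 tested strands, of which these 2 rose beside 6.83% of all rows, the median was 1.51. The call of miR-34b-3p was lost without P3 replicate 1 or 3 and without FFSS replicate 3. miR-92b, which resembles miR-92a but has its own gene, was low and rose on both arms, with miR-92b-3p at 3.02 ± 0.903 CPM in P3 and 11.9 ± 2.39 CPM in FFSS (1.94, SE 0.37, adjusted p = 0.00724). The call of miR-92b-5p, at a mean of 0.942 CPM over both groups, was lost when thinned (adjusted p = 0.110). miR-92b-3p and miR-34c-3p were the risen miRNAs called in all 9 fits that left out a library.

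The other risen miRNAs with at least 50 CPM in FFSS had smaller changes. miR-9a-5p, a neural miRNA that also follows inflammatory signals, was at 40.0 ± 9.19 CPM in P3 and 94.8 ± 35.7 CPM in FFSS (1.21, SE 0.39, adjusted p = 0.0464), and the row miR-9b-3p holds the reverse complement with nearly the same reads. miR-132-3p, induced by the transcription factor CREB, was at 96.2, 97.4 and 60.3 CPM in P3 and 191, 131 and 235 CPM in FFSS (1.08, SE 0.32, adjusted p = 0.0379). miR-212-3p, its cluster partner with the same seed, had libraries that did not overlap either, at 6.18 ± 1.73 and 13.0 ± 3.73 CPM, but was not called (1.04, SE 0.48, adjusted p = 0.139). miR-30c-2-3p, miR-125a-3p and miR-652-3p had log2 fold changes of 1.14, 1.03 and 0.99 (adjusted p = 0.0341, 0.035 and 0.0341). Each of miR-9a-5p, miR-132-3p, miR-30c-2-3p, miR-125a-3p and miR-652-3p lost its call in 7 or more of the 9 fits that left out a library and with no filter on low counts, and miR-132-3p also when thinned (adjusted p = 0.0538).

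**Figure D3:**
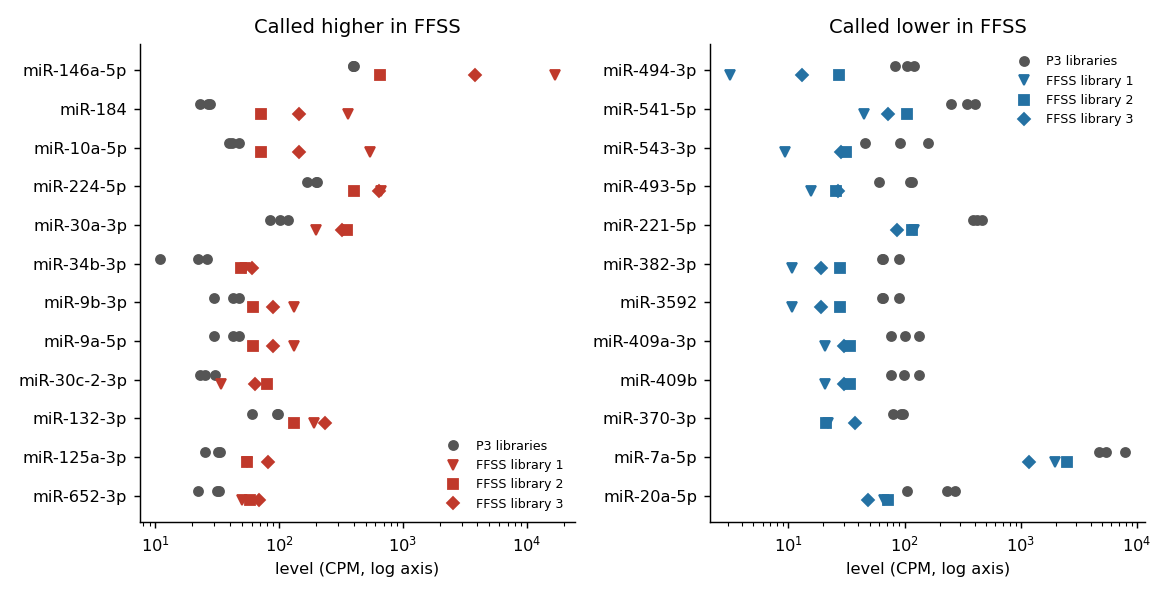
Level in each library (CPM, log axis) of the 12 risen (left) and 12 fallen (right) miRNAs with the largest fold changes where the groups did not overlap and the higher one averaged 50 CPM or more. Grey circles are P3 libraries and coloured symbols the FFSS libraries 1, 2 and 3. miR-146a-5p, miR-184 and miR-10a-5p spread widely over the FFSS libraries with library 1 highest, while the fallen miRNAs from the Dlk1-Dio3 locus have library 1 lowest in most cases.

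Outside the Dlk1-Dio3 locus, miR-7a-5p had the highest level among the miRNAs with the largest falls. This miRNA lies in an intron of Hnrnpk, restrains growth factor signalling and is bound by the circular RNA Cdr1as. It was at 4699, 7951 and 5454 CPM in P3 and at 1979, 2485 and 1169 CPM in FFSS, with no overlap (-1.72, SE 0.38, adjusted p = 0.00985), and kept its call in all 9 fits that left out a library. miR-145-5p, known from smooth muscle and described as targeting Sox9 in chondrocytes, fell from 6598, 5815 and 5462 CPM to 1443, 2821 and 1876 CPM (-1.57, SE 0.34, adjusted p = 0.00944). It too kept its call in all 9. Its cluster partner miR-143-3p, among the most abundant miRNAs, overlapped at 56979 to 68796 CPM in P3 and 41488 to 69750 CPM in FFSS. Of the 4 strands of the miR-143/miR-145 cluster, miR-145-5p alone was called (median -0.35), beside 13.7% of all rows called lower.

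miR-221 and miR-222 share a transcript on the X chromosome and repress the cell cycle inhibitor p27. miR-221-5p fell from 389, 464 and 416 CPM to 121, 115 and 85.7 CPM (-2.01, SE 0.34, adjusted p = 0.00636). miR-222-3p fell from 2925, 2307 and 2290 CPM to 1078, 1431 and 1591 CPM (-0.92, SE 0.24, adjusted p = 0.0232), a call lost without P3 replicate 1 or FFSS replicate 3. miR-221-3p, the main strand of its hairpin, was also lower in every FFSS library, at 5678 ± 844 and 3684 ± 1010 CPM, without passing the test (-0.66, SE 0.24, adjusted p = 0.0688). Of the 4 tested strands 2 fell, beside 13.7% of all rows. With the arms summed both hairpins were called lower, beside 13.9% of all hairpins tested.

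The miR-17-92 cluster, known for driving proliferation downstream of Myc and E2F, was lower in part. By RefSeq neighbours it held 7 tested strands, of which 3 fell and none rose, with a median of -1.66. miR-20a-5p went from 234, 104 and 274 CPM to 66.7, 71.6 and 48.0 CPM (-1.72, SE 0.46, adjusted p = 0.0267). miR-17-5p went from 201, 91.7 and 187 CPM to 76.4, 63.8 and 73.1 CPM (-1.18, SE 0.38, adjusted p = 0.0459). In both, P3 replicate 2 was the lowest of its group and close to the FFSS libraries. The call of miR-20a-5p was lost without P3 replicate 1 or 3 and without FFSS replicate 3. That of miR-17-5p was lost in 15 of 24 alternatives: without these, FFSS replicate 2 or P9 replicate 2, under 3 other scalings, and among the rest with the same miRNAs thinned to equal depth (adjusted p = 0.0554), with limma-voom and on both log2(TPM) scales. miR-19a-3p was at 3.12 ± 1.04 CPM in P3 and 0.265 ± 0.257 CPM in FFSS, which is few reads (-3.39, SE 0.76, adjusted p = 0.00985). The cluster's last strand, miR-92a-3p, overlapped between the groups at 355 to 471 and 267 to 551 CPM. The paralog cluster of miR-25, miR-93 and miR-106b was grouped by RefSeq neighbours without miR-106b. Of the strands of miR-25 and miR-93, 0 of 4 were called and the median was 0.73. miR-106b-5p and miR-106b-3p were not called either (-0.01 and 0.51). In the other paralog cluster, from miR-363 to miR-106a, 1 of 4 strands fell and the median was -0.58, but 3 of these rows (miR-17-5p, miR-19b-3p and miR-92a-3p) are also counted for miR-17-92. The list of miR-17-92 and its paralogs had 16 tested strands, including those of miR-92b, which has its own gene outside these clusters. Of the 16, 2 rose, both of miR-92b, and 3 fell. The median, with the miR-92b strands included, was 0.00. Of all rows tested, 6.83% rose and 13.7% fell.

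In the HoxB and HoxD clusters the miR-10 hairpins went apart. miR-10a-5p rose as above, while miR-10b-5p fell from 669, 1202 and 454 CPM to 444, 193 and 161 CPM (-1.57, SE 0.50, adjusted p = 0.0441). FFSS replicate 1, the highest for miR-10a-5p, was also the highest of the FFSS libraries for miR-10b-5p and lay just below the lowest P3 library. The call of miR-10b-5p was lost without P3 replicate 1 or 2, FFSS replicate 2 or 3 or P9 replicate 2, and with DESeq2 size factors. miR-10b-3p fell as well (-1.48, SE 0.42, adjusted p = 0.0313), a call kept in 5 of the 9 fits that left out a library and lost with the same miRNAs thinned to equal depth (adjusted p = 0.0516). As the sequences show, a single base within the aligned stretch tells these strands apart, and no source used here says how the counting program treated mismatches.

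In the X-linked miR-322/miR-503 cluster, linked to cell cycle exit and muscle differentiation, 2 of 12 strands fell (median -0.50), a share near the 13.7% of all rows. miR-450a-5p was at 202, 202 and 213.8 CPM in P3 and at 93.8, 97.6 and 99.8 CPM in FFSS (-1.13, SE 0.30, adjusted p = 0.0250). miR-450b-5p, which shares its seed, went from 117 ± 6.32 to 61.5 ± 9.38 CPM (-0.99, SE 0.30, adjusted p = 0.0399). In both the libraries of a group lay close together, but the calls were lost without P3 replicate 2 or FFSS replicate 3, and that of miR-450b-5p also without P3 replicate 1 or 3, scaled by library size alone, with a mean of at least 50 counts required and on both log2(TPM) scales. miR-98-5p, a let-7 family member whose hairpin neighbours let-7f on the X chromosome, fell from 930 ± 85 to 524 ± 113 CPM (-0.85, SE 0.27, adjusted p = 0.0441), a call kept in 3 of the 9 fits that left out a library and lost in 15 of 24 alternatives, among them 3 other scalings and the same miRNAs thinned to equal depth (adjusted p = 0.0590).

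The miR-23/miR-27/miR-24 clusters leaned the other way, with 3 of 12 strands higher (6.83% over all rows), none lower and a median of 0.61. miR-24-3p, a highly abundant strand from 2 hairpins, rose from 17088, 14041 and 13671 CPM to 18769, 30555 and 33704 CPM (0.84, SE 0.27, adjusted p = 0.0459). Here FFSS replicate 1 was only slightly above P3. miR-23a-3p rose to 6881 ± 1278 CPM in FFSS, with 3919 ± 1008 CPM in P3 (0.79, SE 0.24, adjusted p = 0.0392), and miR-23b-3p reached 0.62 without being called (adjusted p = 0.0600). The calls of miR-24-3p and miR-23a-3p were each kept in 2 of the 9 fits that left out a library and were lost with no filter and on both log2(TPM) scales.

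Other clusters gave few calls, to be read beside 6.83% of all rows called higher and 13.7% called lower. In the miR-30 clusters 2 of 10 strands rose (median 0.44), in miR-99/miR-100, let-7 and miR-125 1 of 18 rose (median 0.12), and 1 strand fell in each of the miR-532/miR-362/miR-500 (of 7), miR-374/miR-421/miR-545 (of 3), miR-301/miR-130 (of 5) and miR-296/miR-298 (of 3) clusters. The single strands were miR-362-5p (-1.76), miR-374-3p (-1.67), miR-301a-5p (-1.14) and miR-296-3p (-2.11). Of these, miR-374-3p kept its call under every alternative tried, miR-362-5p lost it only without FFSS replicate 3, and miR-301a-5p and miR-296-3p kept it in 5 and 6 of the 9 fits that left out a library. No strand was called in the miR-195/miR-497, miR-15/miR-16, miR-199a/miR-214, miR-29, miR-181, miR-182/miR-183/miR-96 and miR-191/miR-425 clusters. Of these, miR-195-5p, which represses cyclins, was higher in every FFSS library at 171 ± 36.1 against 87.2 ± 33.7 CPM (0.95, SE 0.34, adjusted p = 0.0674).

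**Figure D4:**
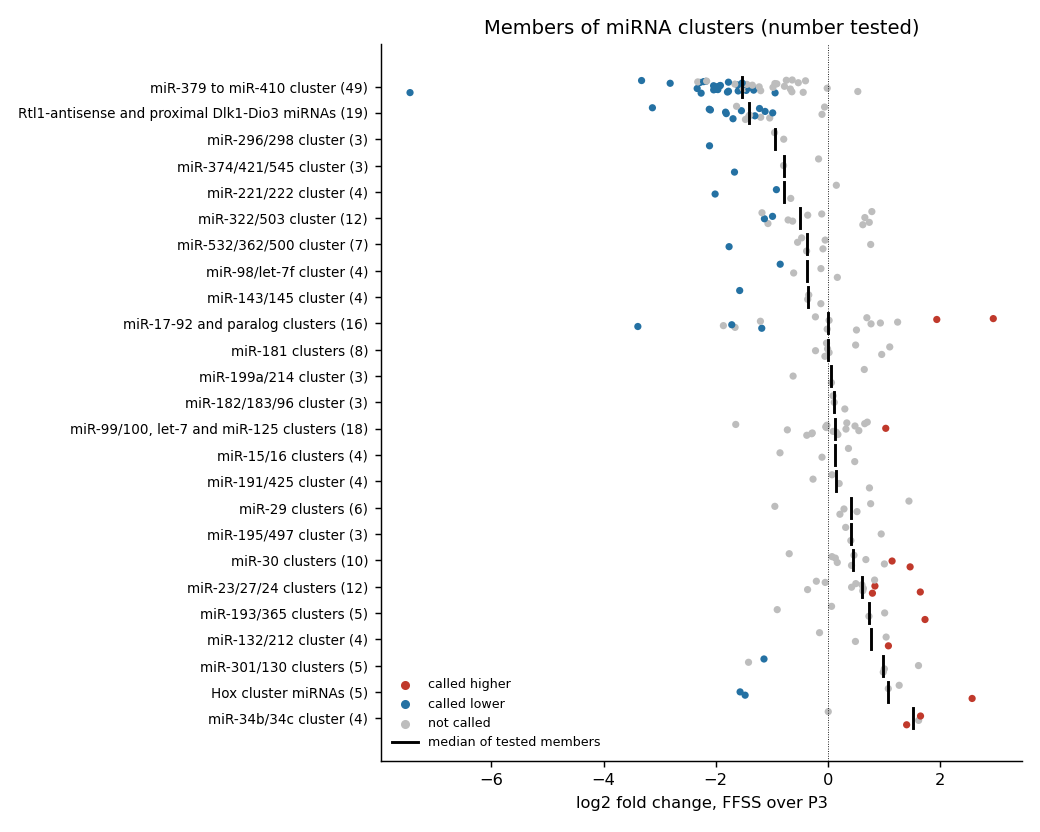
Log2 fold change of FFSS over P3 (x axis) for the tested members of each cluster with at least 3, ordered by the median (black bar), with members called higher in red, called lower in blue and not called in grey. The Dlk1-Dio3 lists have the lowest medians, at -1.52 and -1.41, and miR-34b/34c the highest at 1.51. The farthest point to the left is miR-154-3p, with no read in FFSS.

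Lists by described function were mixed, and they share members with the clusters above. Their counts stand beside 6.83% of all rows called higher and 13.7% called lower. Of 24 NF-kB and inflammation miRNAs, 5 rose (miR-146a-5p, both miR-9a arms, miR-132-3p and miR-147) and 1 fell (miR-221-5p), with a median of 0.49. Of the 9 fits that left out a library, miR-146a-5p kept its call in 5, and miR-147, miR-132-3p and each miR-9a arm in 2. miR-155-5p, a classical inflammatory miRNA, overlapped at 211.8 to 249 CPM in P3 and 332, 136 and 119 CPM in FFSS. Of 37 miRNAs described as responsive to shear or stretch, mostly in vessels, 3 rose and 6 fell (median -0.01), shares near those of all rows. miR-21-5p among them was lower in every FFSS library, at 169987, 170664 and 226294 CPM against 126792, 119944 and 73418 CPM, without passing the test (-0.85, SE 0.32, adjusted p = 0.0730). Of 23 chondrocyte and cartilage miRNAs 2 rose and 6 fell (median -0.29). The fallen were miR-145-5p, miR-222-3p and 4 strands of the Dlk1-Dio3 locus. miR-140-3p, the cartilage miRNA from an intron of Wwp2, overlapped at 3119 to 5855 and 4830 to 6378 CPM, and miR-140-5p at 615 to 950 and 371 to 950 CPM. miR-708-5p, named in the series title, was at 80.0, 33.1 and 73.3 CPM in P3 and 9.38, 34.9 and 31.8 CPM in FFSS and was not called (-1.32, SE 0.52, adjusted p = 0.0898).

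Counted once per hairpin name, with the arms summed, 15 hairpins rose and 45 fell, or 4.64% and 13.9% of the 323 tested. Rows that hold nearly the same reads under another name, such as miR-409b and miR-3592, count here as hairpins of their own. The rises numbered 1, 2 and 2 without P3 replicate 1, 2 or 3, 6 without FFSS replicate 3, and 8, 7 and 39 without P9 replicate 1, 2 or 3. The falls numbered 11, 7 and 24 without P3 replicate 1, 2 or 3, 28 and 26 without FFSS replicate 1 or 3, and 28 and 71 without P9 replicate 2 or 3. Of the 49 hairpins in the Dlk1-Dio3 lists, 28 fell, none rose and all 49 were negative (median -1.49). Of the other 274, 15 rose and 17 fell (median 0.17). Both arms were tested for 120 hairpins, and the arms had the same sign in 79. These 120 include miR-3590, whose arms hold nearly the same reads as those of miR-130a. Across these hairpins the log2 fold changes of the arms correlated at 0.41 (Pearson) and 0.47 (Spearman), as a description, since both arms come from the same libraries. Both arms were called for 10 hairpins, always in 1 direction: miR-23a, miR-92b and miR-9a higher, and miR-10b, miR-329, miR-409a, miR-411, miR-434, miR-493 and miR-539 lower. Of these arms, miR-92b-5p, miR-9a-3p, miR-10b-3p, miR-539-5p and miR-539-3p lost their calls when thinned (adjusted p = 0.110, 0.141, 0.0516, 0.193 and 0.0622). In the same order, they kept their calls in 3, 2, 5, 4 and 2 of the 9 fits that left out a library. In 33 further hairpins 1 arm was called, which was the less abundant arm in 15, and in 8 of the 33 the other arm had the opposite sign without being called. In no hairpin did the arms have calls in opposite directions. In the 20 Dlk1-Dio3 hairpins with both arms tested, both were negative in 19.

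The balance of the arms was tested as the log2 ratio of 5p to 3p reads within a library, which does not depend on scaling between libraries. Of 89 hairpins with enough reads on both arms, 4 changed (limma, adjusted p under 0.05), which is 4.49%. Without P3 replicate 2, FFSS replicate 3 or P9 replicate 3 this count was 1, 2 and 32. The libraries of the groups did not overlap for 44.9% of the ratios. At an unadjusted p under 0.05 there were 28, of which 19 moved toward the 3p arm and 9 toward the 5p arm.

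The miR-376b ratio moved toward 5p, with log2 ratios of -0.52, -1.13 and -0.26 in P3 and 1.93, 1.5 and 1.58 in FFSS (difference 2.30, SE 0.37, adjusted p = 0.00384). The groups were far apart, but the reads were few, with 9, 32 and 31 on the 5p arm and 2, 11 and 10 on the 3p arm in FFSS. miR-376b-3p fell (-2.33, SE 0.50, adjusted p = 0.00944), while miR-376b-5p overlapped between groups at 4.39 to 5.47 CPM in P3 and 3.13 to 7.96 CPM in FFSS. The row of miR-376c-5p, a close relative, had no read in any of the 6 libraries, so the split of reads between these relatives is uncertain.

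In miR-152, a member of the miR-148 family, the 5p arm took 1.70%, 1.80% and 1.69% of the reads in P3 and 0.287%, 0.518% and 0.644% in FFSS. The ratio fell by 1.93 on the log2 scale (SE 0.39, adjusted p = 0.0144). The minor strand miR-152-5p fell from 127, 99.3 and 137 CPM to 24.3, 54.1 and 57.7 CPM (-1.48, SE 0.35, adjusted p = 0.0153), and the main strand miR-152-3p was higher in every FFSS library without passing the test, at 6909 ± 1333 and 9244 ± 1017 CPM (0.39, SE 0.25, adjusted p = 0.271). In miR-362 the 5p share went from 83.8%, 93.2% and 82.5% to 67.1%, 66.3% and 59.5% (-1.93, SE 0.42, adjusted p = 0.0195). In miR-34c it went from 95.3%, 96.1% and 96% to 82.5%, 91.9% and 85.4% (-1.75, SE 0.43, adjusted p = 0.0357), where miR-34c-3p rose and miR-34c-5p was not called. The call for miR-152 was lost without P3 replicate 2, that for miR-362 without P3 replicate 2 or FFSS replicate 3, and that for miR-34c without any 1 of the P3 libraries, FFSS replicate 1 or 3, or P9 replicate 2. The next by p, miR-466b, miR-450b, miR-222 and miR-145, were not called (adjusted p = 0.0710 each). For miR-145 the 5p share still did not overlap, at 85.3% to 87.8% in P3 and 69.4% to 79.4% in FFSS.

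**Figure D5:**
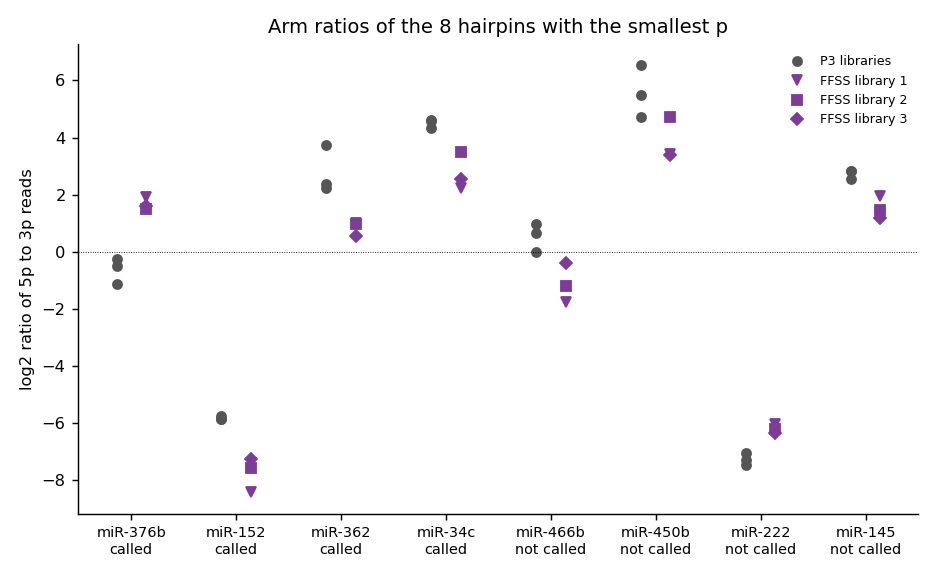
Log2 ratio of 5p to 3p reads (y axis) in each P3 library (circles) and FFSS library (other symbols) for the 8 hairpins with the smallest p, with the call under each name. The ratio of miR-376b moved up from below 0 to above 1, and those of miR-152, miR-362 and miR-34c moved down, with no overlap of the groups.

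Seeds set which messages a miRNA can pair with, so called miRNAs were also read by seed. The 401 tested miRNAs with a sequence had 333 seeds, and 41 seeds had at least 2 tested members. In 17 of these 41 a member was called, in none were members called in opposite directions, and in 2 all members were called: AUCACUA, the risen miR-34b-3p and miR-34c-3p, and UUUGCGA, the fallen miR-450a-5p and miR-450b-5p. Of all rows tested, 20.5% were called, and a seed with several members has more chances of holding a call. The oppositely called miR-10a-5p and miR-10b-5p are not among these seeds, since their RefSeq entries start at different bases.

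Whether relatives with 1 seed differed in response was tested on the log2 ratio of their reads, a comparison added after the data were seen. Of 113 pairs over 33 seeds, 28 changed (limma, adjusted p under 0.05), which is 24.8%. The count was 4, 14 and 8 without P3 replicate 1, 2 or 3, and 16 and 12 without FFSS replicate 2 or 3. Pairs share members and are not independent. Within the seed AAAGUGC, miR-106b-5p gained on miR-20a-5p by 1.72 (SE 0.26, adjusted p = 0.00786) and miR-20a-5p lost against miR-93-5p with a difference of -1.44 (SE 0.26, adjusted p = 0.00874). miR-106b-5p and miR-93-5p come from a cluster in the gene Mcm7, apart from miR-17-92. Within AUUGCAC, the ratio of miR-92a-3p to miR-92b-3p fell by 2.01 (SE 0.36, adjusted p = 0.00874). Within GAGGUAG, the let-7 seed, let-7e-5p gained on miR-98-5p by 1.45 (SE 0.28, adjusted p = 0.0115). miR-30a-5p gained on miR-30e-5p by 1.13 (SE 0.18, adjusted p = 0.00786), although a single substitution separates these strands. For miR-146a-5p and miR-146b-5p the difference was not called (3.17, SE 1.10, adjusted p = 0.0669).

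Thinning all libraries to the smallest total left 25 of the 30 rises and 53 of the 60 falls called. Leaving out FFSS replicate 1 kept 13 of the 30 rises and 51 of the 60 falls, and leaving out FFSS replicate 3 kept 8 and 29. Of the 22 falls outside the Dlk1-Dio3 lists, 20 were kept without replicate 1 and 8 without replicate 3. In all 9 fits that left out a library, 2 of the rises and 27 of the falls were called. Low reads limit some of these values, since 11 of the fallen miRNAs had a mean under 10 reads in FFSS and 2 of the risen had one in P3.

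Base composition moved little with the response. The median GC content was 50% for risen, 45.5% for fallen and 47.6% for all 401 tested miRNAs with a sequence, and the median length was 22 bases in each. Across these miRNAs GC content and log2 fold change correlated at 0.11 (Pearson) and 0.12 (Spearman), a description over miRNAs that share libraries. In 29 pairs of rows the reads agreed in every library within 10% or 5 reads. The sequences of 27 of these pairs were reverse complements over most of their length, so these rows do not tell the strands apart.

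The P9 libraries were compared with the same P3 controls, so the values are set side by side only. Of all rows tested, 7.29% were called between P9 and P3. Against P3, the miR-379 to miR-410 cluster had a median of 0.39 in P9 with 0 of 49 called, and the proximal list 0.15 with 0 of 19. Directly compared, 41 of the 49 and 16 of the 19 were lower in FFSS than in P9, beside 22.6% of all rows lower and 34.4% called. miR-34b-3p and miR-34c-3p were at 2.63 and 2.38 in P9 against P3. miR-145-5p and miR-222-3p, lower in FFSS than in P3, had log2 fold changes of -2.61 and -1.99 in FFSS against P9 (adjusted p = 4.53e-04 and 4.06e-04). That of miR-7a-5p in FFSS against P9 was -2.34 (adjusted p = 7.73e-04).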

How the data were processed

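Small RNA was sequenced from total RNA in 9 libraries, of which 3 of P3 and 3 of FFSS are compared here. The authors deposited raw read counts for 726 miRNA rows, as the column headers say. The TPM columns were made by the authors, per the file headers, and equalled CPM computed here from the counts within 4.85e-05, so they hold no length term. The submitters' processing notes name Bowtie and Rnor_6.0. Neither the counting program nor the annotation release is given in the sources used here. FFSS libraries held 2878910 to 7082142 reads and P3 libraries 7522702 to 8862560, so low miRNAs were measured less precisely in FFSS.

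The deposited counts entered edgeR 4.0.16 (limma 3.58.1, R 4.3.3): filterByExpr, which kept 439 rows (7 predicted, none called), TMM scaling, 1 model of all 9 libraries without intercept, robust quasi-likelihood test of FFSS against P3, Benjamini-Hochberg adjustment over the 439, called at an adjusted p under 0.05. Levels are CPM, scaled by a library's total, and SDs are over 3 libraries. Hairpin counts were summed over arms and tested likewise. Arm ratios (mean of at least 20 counts per arm, 0.5 added) and ratios of same-seed pairs, the latter added after the data were seen, were tested with robust limma. A row was named as a pair with another where their reads agreed within 10% or 5 reads. Scripts were tested on simulated data.

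Named are the called miRNAs with the 12 highest and 12 lowest fold changes (groups without overlap, at least 50 CPM on average where higher), up to 4 members per list with the smallest p, hairpins with both arms called, the 8 arm ratios with the smallest p, the 10 most abundant miRNAs and miR-708. Others, including seed relatives and the miRNAs of the closing section, were chosen after their values were seen. Members and lists were chosen with earlier results of these data known. Lists are described by counts and medians, without a set test. Alternatives were other scalings, filters, DESeq2 1.42.0, limma-voom, limma on log2(TPM + 1) and log2(TPM + 10), a fit of only P3 and FFSS, a replicate block, thinning, merging of paired rows, leaving out each library, and requiring an absolute log2 fold change of 1. Sequences and neighbours came from RefSeq (GRCr8), matched by miRNA name; no coordinates are given.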

Additional observations from a re-analysis of the deposited data

How the results depend on the processing

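The counts of calls depended on single libraries and on the filter. Leaving out 1 library gave 3 to 53 rises and 32 to 94 falls of miRNAs, 18 to 36 falls in the miR-379 to miR-410 cluster and 6 to 16 among the proximal Dlk1-Dio3 miRNAs, 1 to 39 risen and 7 to 71 fallen hairpins, 1 to 32 changed arm ratios and 4 to 33 changed same-seed pairs. With no filter 15 miRNAs rose, and with a mean of at least 50 counts 39 fell. A fit of only P3 and FFSS gave 51 risen miRNAs, 29 risen hairpins and 21 changed arm ratios. Scaling by library size alone left 7 falls among the proximal Dlk1-Dio3 miRNAs, and adding 5 counts gave 9 changed arm ratios. The cause was not tested. The replicate numbers did not pair the libraries: deviations from the group means correlated at -0.08, 0.14 and -0.06 between same-numbered P3 and FFSS libraries, and 1 of the 3 P3 libraries correlated best with its own number. With a replicate block 9 miRNAs rose and 42 fell, 2 hairpins rose and 21 fell, 21 miR-379 to miR-410 and 8 proximal members fell, 5 arm ratios changed and 6 same-seed pairs changed, and miR-146a-5p, miR-10a-5p and miR-10b-5p were among the miRNAs not called. The other counts stayed within 1.5 times the reported ones. The median of all tested rows lay between -0.06 and 0.09 under the scalings tried, and that of the Dlk1-Dio3 miRNAs between -1.63 and -0.74, the latter on log2(TPM + 10), which compresses low values.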

Other observations

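Several miRNAs, most of them low and all named after their values were seen, also passed the edgeR test. miR-187-3p rose from 5.11, 5.05 and 5.53 CPM in P3 to 25.7, 18.5 and 22.1 CPM in FFSS (log2 fold change 2.03, SE 0.44, adjusted p = 0.00944), with both groups tight and far apart, and lost its call only without P3 replicate 1. miR-331-3p went from 9.03 ± 2.94 to 23.7 ± 6.95 CPM (SD, n = 3; 1.36, adjusted p = 0.0309), miR-1839-3p from 8.24 ± 1.99 to 22.8 ± 8.46 CPM (1.42, adjusted p = 0.0267) and miR-324-5p from 5.02 ± 1.67 to 12.4 ± 2.91 CPM (1.28, adjusted p = 0.0373). miR-193a-3p rose by 1.73 and miR-466b-3p by 1.27 on the log2 scale. In these 6 miRNAs no FFSS library overlapped with P3. Of the 9 fits that left out a library, miR-331-3p kept its call in 3, miR-1839-3p in 4, miR-324-5p and miR-193a-3p in 2 each and miR-466b-3p in 1. Thinning to equal depth ended the calls of miR-193a-3p and miR-466b-3p (adjusted p = 0.0966 and 0.0949). miR-3556a, which was not low, rose by 1.05 with overlap of the groups, since FFSS replicate 1 was at 177 CPM and P3 replicate 1 at 201 CPM, and kept its call in 2 of the 9.

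Among the low miRNAs that fell, miR-6331, which RefSeq places among the hairpins of the miR-379 to miR-410 cluster, went from 2.70 ± 0.660 to 0.467 ± 0.265 CPM (-2.62, SE 0.60, adjusted p = 0.0113). miR-1247-3p went from 9.70 ± 1.99 to 2.47 ± 1.90 CPM (-2.15, SE 0.61, adjusted p = 0.0313) and miR-190b-5p from 17.1 ± 4.42 to 6.34 ± 3.70 CPM (-1.43, SE 0.47, adjusted p = 0.0492). miR-6331 kept its call in all 9 fits that left out a library, miR-1247-3p in 5 and miR-190b-5p in 3. That of miR-190b-5p was lost in 10 of 24 alternatives, among them DESeq2 size factors, library size alone and limma-voom. These levels correspond to few reads in FFSS replicates 1 and 3, where 10 reads were worth 3.47 and 2.57 CPM.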
